A study of Ovis aries with 6 samples.

Results

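Imprinted loci are stretches of the genome from which only the maternal or only the paternal copy is transcribed, and several of them control growth. MEST and IGF2 are expressed from the paternal copy, and H19, a long non-coding RNA that lies beside IGF2, from the maternal copy. Each hosts a miRNA hairpin: miR-335 lies in an intron of MEST, miR-483 in an intron of IGF2, and miR-675 is cut from an exon of H19. A miRNA binds target mRNAs through its seed, bases 2 to 8 from the 5′ end, and lowers their translation or stability. In mouse, miR-675 represses Igf1r in placenta and Smad1, Smad5 and Cdc6 in regenerating muscle. In human cells, miR-483-3p represses the apoptosis gene BBC3, and miR-335 represses SOX4.

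These 3 hairpins were examined in small RNA libraries of longissimus muscle, the long back muscle, from Qianhua Mutton Merino (QHMM, n = 3) and Small Tail Han (STH, n = 3) sheep kept under natural conditions, with breed as the only difference in the labels, which give no age or sex. The members were all miRNA names equal to miR-335, miR-483 or miR-675, with or without an arm, in the table of deposited read counts: 5 names out of 10430, held by 10 of 11161 rows. A name found in several rows was represented by the row with most counts. The 5 names were miR-335 (the 5p arm, listed without an arm), miR-335-3p, miR-483-3p, miR-483-5p and miR-675-5p. No row matched the name miR-675-3p, so that arm was not analysed here. The labels do not tie each library to a separate animal, so the p-values refer to the spread among libraries, which may be technical.

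Total counts ran from 8062231 to 10276427 in the QHMM libraries and from 8681817 to 11282332 in the STH libraries. CPM are counts scaled to a library of 1000000, with the total taken over 1 row per name. This total was lowest in QHMM replicate 2 (5572865) and STH replicate 2 (6172849) and lay between 7321366 and 7930202 in the other 4 libraries. Markers of muscle fibres fitted the tissue label, with 14 names that summed to between 451000 and 547100 CPM. The liver marker miR-122, the pancreatic islet marker miR-375 and the neuronal marker miR-124 each stayed below 4 CPM in every library. The other listed neuronal marker, miR-9, had no row under that name. The names miR-9a-5p and miR-9a-3p, which passed the filter on low counts, were not matched to it, so neuronal content was judged from miR-124 alone. The 5 red blood cell names summed to 18940, 19900 and 84280 CPM in QHMM, against 7274, 13820 and 8537 CPM in STH.

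The rows that carried the counts are shown first, since the sequence decides what a name means here. Capitals mark the seed, and each sequence is written 5′ to 3′ as deposited.
miR-335, predicted locus on chromosome 4: tCAAGAGCaataacgaaaaat
miR-335-3p, star arm of the same locus: tTTTTCATtattgctcctgac
miR-483-3p, rat row: cACTCCTCccctcccgtcttgt
miR-483-3p, human row: tCACTCCTctcctcccgtctt
miR-483-3p, mouse row: tCACTCCTcccctcccgtctt
miR-675-5p, human row: tGGTGCGGagagggcccacagtg
miR-675-5p, rat row: tGGTGCGGaaagggcccacagt
miR-483-5p, predicted locus on chromosome 1: tCTCCCTCctttcctcccag
miR-483-5p, rat row: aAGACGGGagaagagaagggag

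miR-335 and miR-335-3p were the arms of 1 predicted sheep locus, named for chromosome 4 by the authors' caller with no position. MEST lies on the same chromosome in the RefSeq table of assembly ARS-UI_Ramb_v3.0, a different build from the Oar_v3.1 of the deposited data, so no coordinates are given. The arms formed a duplex of 18 base pairs with a calculated energy of -18.3 kcal/mol (RNAduplex). The seed of miR-335, CAAGAGC, stood in no other row of the table, as 58.97% of 6200 seeds did, and ranked 105th of these by total counts. Of the miR-335-3p counts, 99.3% lay at the sheep locus and 1 count at the mouse row, which is the same sequence with 1 more base.

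For miR-483-3p the counts were split over 3 rows. The rat row held 336 counts, or 87.7%, the human row 46 counts, or 12%, and the mouse row 1 count. The rat row begins 1 base later than the other rows. Its overlap with the mouse row, 20 bases, is identical, and the human row differs from the mouse row by C10T, counted from the 5′ end of the mouse row. Because of the later start, bases 2 to 8 of the rat row read ACTCCTC and those of the other rows CACTCCT. The human row took between 8.0% and 19.4% of the counts of both rows in the 6 libraries. How the authors divided reads among rows this alike is not given in the sources used here, and the listed start of a row need not be the start of the reads.

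The row that stood for miR-483-5p did not resemble miR-483-5p. This predicted locus was named for chromosome 1, whereas IGF2 lies on another chromosome in the RefSeq table. Aligned without gaps to the rat miR-483-5p row, the best overlap had 2 of 8 bases in common, while its overlap with the reverse complement of that row had 14 of 19. With rat miR-483-3p, the opposite arm, it formed only 2 base pairs at a calculated energy of 0.50 kcal/mol, against 15 base pairs and -24.0 kcal/mol for rat miR-483-5p. Its own star arm, with 1 count, gave 14 base pairs and -19.1 kcal/mol. Its seed CTCCCTC was shared with 3 other rows that held 421 counts, a pair of unnamed predicted loci and miR-4469. The values under this name are therefore those of the locus on chromosome 1, and the rat row is given beside them.

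The 2 rows of miR-675-5p, H19's product, differ by G10A, from the human to the rat row. The human row held 98.0% of the counts and the rat row 2 counts. Their seed GGTGCGG stood in 1 other row, miR-4466, with 1 count.

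miR-335 was by far the most abundant of the 5 names, and its level differed more than 2-fold among the libraries. It had 350, 156 and 262 CPM in QHMM replicates 1, 2 and 3, against 186, 149 and 211 CPM in STH replicates 1, 2 and 3. QHMM replicate 1 was highest and STH replicate 2 lowest, and the breeds overlapped. The mean was 219 ± 76.3 CPM (SD, n = 6), which put miR-335 in place 133 of 10430 names.

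miR-335-3p, the other arm from the MEST intron, had 20, 13 and 40 counts in QHMM, against 28, 8 and 28 counts in STH. These are 2.65, 2.33 and 5.37 CPM in QHMM and 3.82, 1.30 and 3.53 CPM in STH. QHMM replicate 3 was highest and STH replicate 2 lowest. The mean was 3.17 ± 1.41 CPM (SD, n = 6), place 896.

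miR-483-3p, from the IGF2 intron, had 12.7, 3.77 and 7.79 CPM in QHMM, from 96, 21 and 58 counts, against 11.8, 4.70 and 5.80 CPM in STH, from 86, 29 and 46 counts. Replicate 1 was highest and replicate 2 lowest in each breed. The sum of the 11 epithelial names followed the same order, with 31.4, 4.49 and 5.51 CPM in QHMM and 20.2, 2.92 and 7.82 CPM in STH. Of these names only miR-200a passed the filter on low counts. The list was set beside miR-483-3p with the values known, and its part in the miR-483-3p values was not tested. The mean of miR-483-3p was 7.75 ± 3.73 CPM (SD, n = 6), place 607.

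miR-675-5p, from the H19 exon, had 11, 14 and 32 counts in QHMM, against 19, 12 and 12 counts in STH. These are 1.46, 2.51 and 4.30 CPM in QHMM and 2.60, 1.94 and 1.51 CPM in STH, with a mean of 2.39 ± 1.05 CPM (SD, n = 6), place 1005. QHMM held both the highest and the lowest library. The 32 counts of QHMM replicate 3 have an exact Poisson 95% interval of 21.9 to 45.2, and the 11 counts of QHMM replicate 1 one of 5.49 to 19.7. QHMM replicate 3 was also the library with 84280 CPM of red blood cell names, whose part in the miR-675-5p value was not tested.

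The row standing for miR-483-5p had 6, 3 and 8 counts in QHMM, against 8, 3 and 8 counts in STH, a mean of 0.833 ± 0.270 CPM (SD, n = 6), and did not pass the filter on low counts. The rat row of miR-483-5p had 1, 2 and 0 counts in QHMM, against 0, 0 and 0 in STH. The sum of 3 counts over the QHMM libraries, 0.146 CPM, is at the floor of 3 counts, and a sum of 0 over the STH libraries allows up to 3 counts, or 0.140 CPM, so no fold is given. Intervals and floors cover counting error only.

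**Figure D1:**
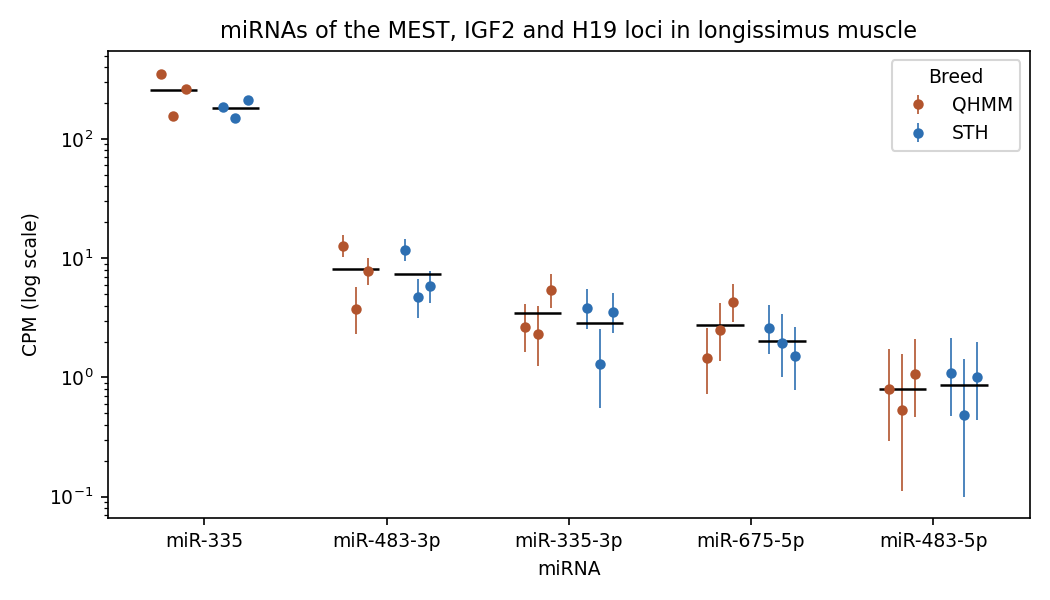
CPM (log scale) of the 5 miRNA names in QHMM (left of each pair) and STH (right). Points are libraries with exact Poisson 95% intervals, and black lines are means of 3 libraries. miR-335 lies between 149 and 350 CPM and the other 4 names at or below 12.7 CPM, with the breeds overlapping throughout.

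Counts here are of whole mature sequences of 20 to 23 nt, so levels of different names were compared without scaling by length. miR-335 exceeded miR-483-3p in 6 of 6 libraries, by 15.9 to 41.3-fold, a mean difference of 4.79 ± 0.45 in log2 CPM (SD, n = 6). miR-483-3p exceeded miR-335-3p in 6 of 6 libraries as well, by 1.45 to 4.80-fold (mean log2 difference 1.14 ± 0.65). miR-675-5p exceeded the chromosome 1 row that stands for miR-483-5p in 6 of 6 libraries, by 1.5 to 4.67-fold. The neighbours miR-335-3p and miR-675-5p were not told apart: miR-335-3p was higher in 4 of 6 libraries, with a mean difference of 0.32 ± 0.52 on the log2 scale (SD, n = 6). Neighbours were set by the means of the same libraries, so these are descriptions with no p.

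The arms of the hairpins were used very unequally. The 5p arm took between 98.0% and 99.3% of the miR-335 counts in the 6 libraries, 9420 counts against 137. The highest share, in QHMM replicate 1, had a Wilson 95% interval of 98.8% to 99.5%, and the lowest, in STH replicate 1, one of 97.1% to 98.6%. The mean share was 98.6% ± 0.632 in QHMM and 98.5% ± 0.589 in STH (SD, n = 3 each; two-sided exact permutation p = 0.70, the smallest possible with 3 libraries per breed being 0.10).

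In miR-483 the 3p arm prevailed. With the rat rows of both arms, the 5p arm had 1.03%, 8.70% and 0% of the counts in QHMM, against 0%, 0% and 0% in STH (exact permutation p = 0.40). The chromosome 1 row, which stands for miR-483-5p by name only, held 10.2% ± 3.72 of its own and the miR-483-3p counts in QHMM and 10.9% ± 3.42 in STH (SD, n = 3 each), which is no share of arms of 1 hairpin. Adjusted over the 3 comparisons computed, this one included, the p was 1.0 for both hairpins.

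**Figure D2:**
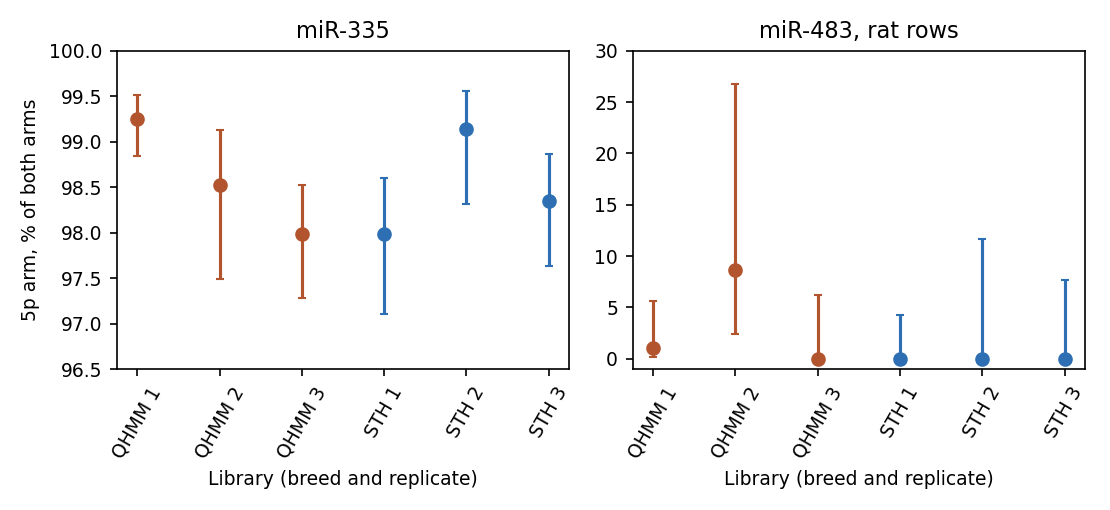
Share of the 5p arm (% of counts of both arms) per library for miR-335 and for the rat rows of miR-483, QHMM libraries left and STH libraries right, with Wilson 95% intervals. The axes cover different ranges and the left one does not start at 0. miR-335 stays at or above 98.0% in each library, and miR-483 at or below 8.70%.

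The series compares muscle of a meat-type Merino and a native breed, and none of the miRNAs of the MEST, IGF2 and H19 loci differed between them past the threshold. Of the 4 names that passed the filter, 0 had an adjusted p under 0.05 with edgeR's quasi-likelihood test, 0 had an unadjusted p under 0.05, and DESeq2 called 0. Over all 1274 names tested, edgeR called 28, or 2.20%, and 13.7% had an unadjusted p under 0.05. DESeq2 called 3.86% of all names with an adjusted p. In 0 of the 4 did the libraries of the breeds separate, as they did in 17.2% of all names tested. A p above the threshold does not show that the breeds had equal levels, and the intervals below give the differences that remain possible.

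miR-335 averaged 256 ± 97.5 CPM in QHMM and 182 ± 31.0 CPM in STH (SD, n = 3 each). The log2 fold change was 0.46 (standard error 0.29, edgeR adjusted p = 0.521), a fold of 1.37 with a 95% interval of 0.889 to 2.12. Counting error alone would give the ratio of summed shares, 1.44, an interval of 1.38 to 1.5, which is narrower than the interval over libraries. Without QHMM replicate 2 the log2 fold change was 0.66 (edgeR adjusted p = 0.333), and without QHMM replicate 1 it was 0.20.

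miR-675-5p averaged 2.76 ± 1.44 CPM in QHMM and 2.02 ± 0.545 CPM in STH (SD, n = 3 each), a log2 fold change of 0.46 (standard error 0.49, edgeR adjusted p = 0.722). The fold was 1.38 with an interval of 0.664 to 2.85. Its direction rested on QHMM replicate 3, the library rich in red blood cell names, without which the log2 fold change was -0.041.

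miR-483-3p averaged 8.09 ± 4.48 CPM in QHMM and 7.42 ± 3.79 CPM in STH (SD, n = 3 each), a log2 fold change of 0.094 (standard error 0.43, edgeR adjusted p = 0.940; fold 1.07, interval 0.558 to 2.04). It was -0.34 without QHMM replicate 1, -0.12 without STH replicate 2 and -0.058 without STH replicate 3. miR-335-3p averaged 3.45 ± 1.67 CPM in QHMM and 2.88 ± 1.38 CPM in STH (SD, n = 3 each), a log2 fold change of 0.26 (standard error 0.47, edgeR adjusted p = 0.840; fold 1.2, interval 0.590 to 2.43). It was -0.23 without QHMM replicate 3 and -0.052 without STH replicate 2. For the row standing for miR-483-5p, the ratio of summed shares, QHMM over STH, came to 0.932 (counting interval 0.455 to 1.89) and was not tested.

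**Figure D3:**
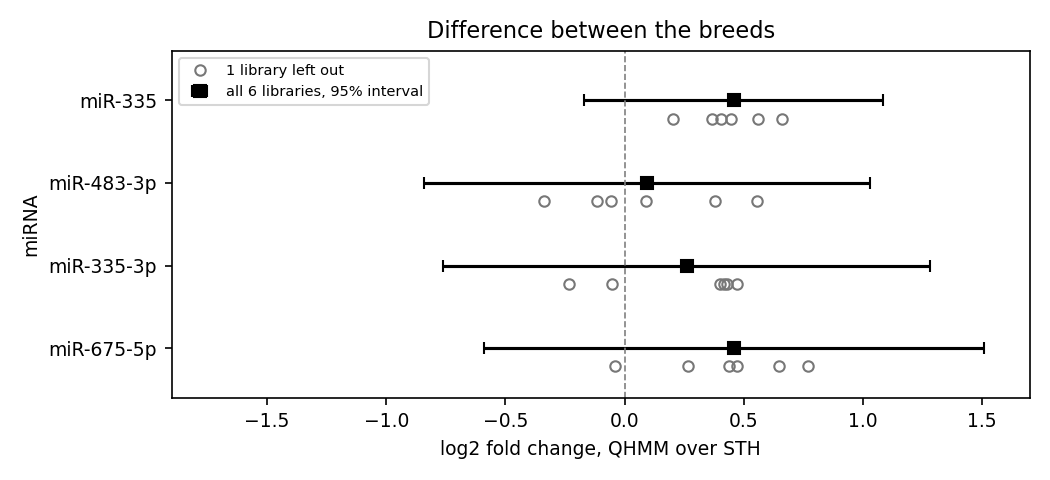
log2 fold change, QHMM over STH, of the 4 names that passed the filter. Squares with bars are edgeR estimates with 95% intervals over 6 libraries, and open circles leave out 1 library each. The 4 intervals span 0, and leaving out 1 library puts 3 of the 4 names on either side of 0.

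The coefficient of variation over the 6 libraries was 34.8% for miR-335, 48.1% for miR-483-3p, 44.4% for miR-335-3p and 44.1% for miR-675-5p, where the median over the 1274 names was 33.9%. Within STH, miR-335 varied by 17.01%, where the median was 25.4%, and within QHMM by 38.1%, where the median was 30.1%. For 4 of the 5 names, all but miR-675-5p, the lowest CPM were in QHMM replicate 2 and STH replicate 2, the libraries with the fewest counts. Of the 4 names that passed the filter it held for 3, which include both arms of miR-335, and of the 1274 names tested it held for 14.1%, a count made after the values were seen. The part of depth in these low values was not tested.

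**Figure D4:**
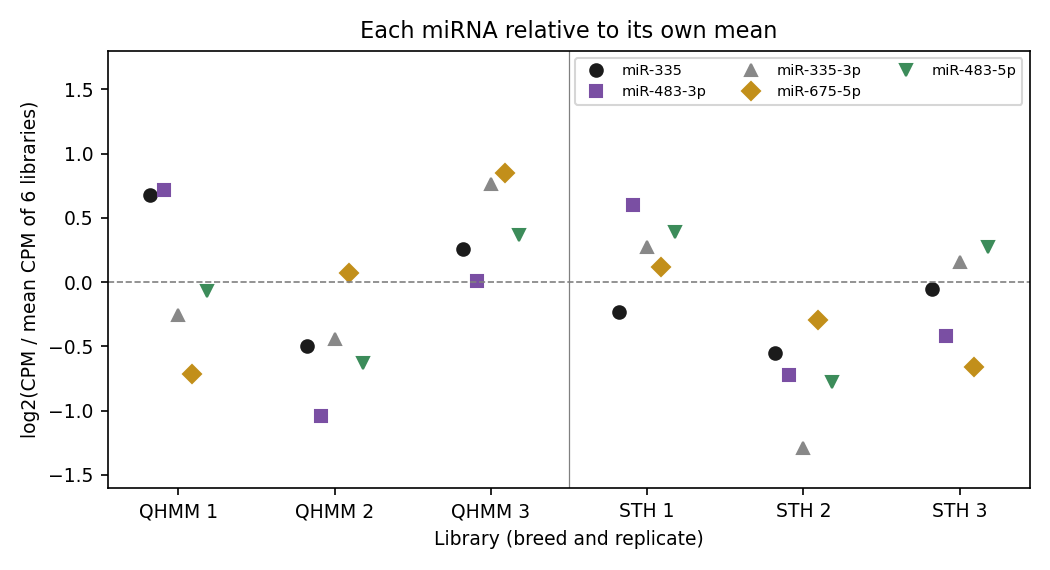
log2 of the CPM of each name over its own mean of 6 libraries, by library, QHMM left of the vertical line and STH right. Replicate 2 of both breeds holds the lowest 2 values of 4 of the 5 names, and miR-675-5p has its highest value, 4.30 CPM, in QHMM replicate 3.

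Relations among the names over the 6 libraries were weak against their error. The closest was that of miR-335 and miR-483-3p, whose host genes are both paternally expressed, with Pearson's r of 0.73 (exact permutation p = 0.117, adjusted p = 0.529 over 6 pairs) and Spearman's rho of 0.77 (exact permutation p = 0.103, adjusted p = 0.446) on log2 CPM. Without QHMM replicate 1 and STH replicate 2, the libraries farthest from the median of miR-335, r was 0.43. miR-335 and miR-675-5p had r of -0.098 (exact permutation p = 0.917, adjusted p = 0.931) and rho of -0.20 (exact permutation p = 0.714, adjusted p = 0.803), and r was 0.44 without the same libraries. The arms of miR-335 had r of 0.49 (exact permutation p = 0.322, adjusted p = 0.529) and rho of 0.60 (exact permutation p = 0.242, adjusted p = 0.446), and 0.94 for r without those libraries. With 3 libraries, a breed is too small for a value of its own.

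Of the 9 names whose log2 CPM ran most like these over the 6 libraries, 3 for each hairpin, 7 were unnamed predicted loci. The others, miR-544-3p and miR-432, belong to the imprinted locus DLK1-DIO3, whose large miRNA cluster is expressed from the maternal copy. For miR-335 the 3 were a pair of unnamed predicted loci (r of 0.99 and 0.96) and miR-544-3p (r of 0.96), and for miR-483-3p a pair of unnamed predicted loci (r of 0.97 and 0.96) and miR-432 (r of 0.95). For miR-675-5p they were 3 unnamed predicted loci, with r of 0.97, 0.96 and 0.96. Each was compared with 1273 names over the same 6 libraries, and r was at least 0.9 for 15 names with miR-335, 7 with miR-483-3p and 7 with miR-675-5p, so these are descriptions. The imprinted list described next held 4, 1 and 0 of these names. That is 7.41%, 1.85% and 0% of its 54 names past the filter, where 1.18%, 0.55% and 0.55% of all names reached 0.9.

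The other imprinted miRNAs were described as a list, that of DLK1-DIO3 and GNAS, with 95 names of which 54 passed the filter. None of the 54 was called in either direction by edgeR, beside 2.20% of all names tested. DESeq2 called 0 of them as well, beside 3.86% of all names with an adjusted p, and 2 had an unadjusted p under 0.05, beside 13.7% of all names tested. Of the 54, 33 had a positive log2 fold change, QHMM over STH. Their median log2 fold change was 0.20, where that of all names was 0.031. The most abundant were miR-376c-3p with 748 ± 268 CPM in QHMM and 958 ± 236 CPM in STH, miR-381-3p with 446 ± 337 CPM in QHMM and 769 ± 251 CPM in STH, and miR-296-5p of GNAS with 518 ± 50.2 CPM in QHMM and 520 ± 70.9 CPM in STH (SD, n = 3 each). miR-335, with a mean of 219 CPM over the 6 libraries, lay below each of these. Its level was close to that of miR-127, a less abundant member of DLK1-DIO3, with 223 ± 84.1 CPM in QHMM and 210 ± 43.2 CPM in STH. miR-127 was picked after its value was seen. The median r of the 54 names over the 6 libraries was 0.41 with miR-335 and 0.45 with miR-483-3p, but -0.55 with miR-675-5p, where the medians over all names were 0.029, -0.022 and 0.022. This measure was added after the values were seen and carries no test. Most names of the list belong to the DLK1-DIO3 locus, so they are not separate observations. The 95 names summed to most CPM in QHMM replicate 1 (6603) and to least in QHMM replicate 3 (3372). QHMM replicate 1 was also the highest library of miR-335 and miR-483-3p, and QHMM replicate 3 that of miR-675-5p.

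The IGF2 protein signals through IGF1R, and a list of 62 names of miRNAs known to act on this pathway was taken beside the IGF2-borne miRNA. Of these, 41 passed the filter, edgeR called none in either direction (2.20% of all names), 5 had an unadjusted p under 0.05 (13.7% of all names), and 17 had a positive log2 fold change, with a median of -0.047 over the list. DESeq2 called 2 (3.86% of all names with an adjusted p), both arms of miR-497. The edgeR log2 fold changes of miR-497-5p and miR-497-3p were 2.01 (adjusted p = 0.268) and 1.77 (adjusted p = 0.108). The most abundant were miR-1b, which is listed with the sequence of miR-1, at 0.014 (standard error 0.19, edgeR adjusted p = 0.979), miR-133 at 0.43 (0.18, adjusted p = 0.329) and miR-206-3p at -0.27 (0.19, adjusted p = 0.582). miR-133 acts on IGF1R mRNA and miR-1 and miR-206 on IGF1 mRNA in rodent muscle. These names, at 35910 CPM and above, were far more abundant than miR-335, the highest of the miRNAs from the MEST, IGF2 and H19 loci.

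Among the cell type markers, edgeR called 2 names, both of muscle fibres. Of the 12 muscle fibre names tested, miR-499-3p and miR-208b-3p were called (edgeR adjusted p = 0.0419 each), both higher in QHMM, beside 2.20% of all names. Of the 12, 8 had a positive log2 fold change, and that of miR-1-3p was -0.58 (edgeR adjusted p = 0.507). At an unadjusted p under 0.05 there were 4 of the 12, and DESeq2 called 3. Over all names, 13.7% had an unadjusted p under 0.05 and DESeq2 called 3.86%. These shares also stand beside the counts of the blood cell names below. The summed list ran from 518600 to 547100 CPM in QHMM and from 451000 to 536800 CPM in STH. The 3 red blood cell names tested had a median log2 fold change of 2.03, and edgeR called 0 of them, with 1 at an unadjusted p under 0.05 and 1, miR-451-5p, called by DESeq2. The 7 leukocyte names summed to between 1765 and 1942 CPM in QHMM and between 1165 and 1425 CPM in STH, and edgeR called 0 of the 5 tested, with 2 at an unadjusted p under 0.05 and 1, miR-142-3p, called by DESeq2. The 4 endothelial names summed to 12780 to 27420 CPM in QHMM and 23280 to 25300 CPM in STH, the 5 smooth muscle names to 32470 to 44570 CPM in QHMM and 40230 to 53020 CPM in STH, and the 3 fibroblast names to 1982 to 2767 CPM in QHMM and 1887 to 3617 CPM in STH. The part of cell composition in the levels of the imprinted miRNAs was not tested, and in whole muscle fewer cells of a type and less RNA per cell cannot be told apart.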

How the data were processed

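The authors made size-selected small RNA libraries of longissimus muscle for single-end sequencing on Ion PI templates and deposited a table of unnormalised counts, with a row for each mature sequence. Build Oar_v3.1 and DESeq are listed by the submitters' processing notes. Not given in the sources used here are the aligner, the miRNA caller and how a read matching more than 1 row was counted, so rows of 1 family can share reads. A row's name is its miRNA name without species prefix, and each name was represented by its most counted row. All 6 value columns were mapped to samples. Libraries of a breed differed by a chi-square per degree of freedom of at least 17.95, and none was a duplicate.

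Breeds were compared over all names with the quasi-likelihood test of edgeR 4.0.16 under R 4.3.3 (robust fit, TMM factors, filterByExpr, no covariates, Benjamini-Hochberg adjusted p under 0.05), with DESeq2 1.42.0 as an alternative. Fold changes are QHMM over STH. Standard errors and 95% intervals derive from the F statistic. Levels used Python 3.11.15, numpy 2.4.6, pandas 2.3.3 and scipy 1.17.1, with a pseudocount of 0.5 CPM for log2 CPM in paired differences and correlations among members, and a prior count of 2 for likeness over all names. Duplexes were calculated with RNAduplex 2.7.2. The edgeR fit of the breeds was tried on counts simulated with known folds from the means and dispersions of these data. The other methods were not tried in this way. Members, lists and tests were chosen with earlier results of these data known. The text names the members, their rows and seed sharers, the 3 names most alike per hairpin, and from each list the most abundant and the called names. Further named miRNAs, such as miR-127, were chosen after their values were seen. List members were matched by name, and miR-1 and miR-378 by the names miR-1b and miR-3557-5p after these were seen. Alternatives were other factors, filters and row choices, DESeq2, a replicate block, known names only, and each library left out.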

Additional observations from a re-analysis of the deposited data

How the results depend on the processing

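The 4 tested members stayed above an adjusted p of 0.05 in all 59 alternative values (lowest 0.333, miR-335 without QHMM replicate 2). With all 6 libraries, 35 of 35 alternative log2 fold changes kept their sign. With 1 library left out, 6 changed sign. The ranges then were -0.34 to 0.55 for miR-483-3p, -0.23 to 0.47 for miR-335-3p, -0.041 to 0.77 for miR-675-5p and 0.20 to 0.66 for miR-335. The number of names called between the breeds, 28, was 49 with DESeq2, 64 without the filter, 8 where each library had to hold 10 counts and 6 when predicted loci were left out. miR-335-3p could not be fitted at 10 counts in each library. The number of names called was 16 to 35 with 1 library left out, 16 without QHMM replicate 3 or STH replicate 3 and 18 without STH replicate 2. The stricter sets test fewer names. For the rest, the cause was not tested. With a replicate block, edgeR made 26 calls, sharing 22 with the 28, and called no member. In their deviations from the breed mean, same-numbered libraries correlated by 0.061, 0.24 and 0.12, each best with its own number. A batch shared by number therefore remains possible. The labels do not say what the number stands for, so the main fit left it out and the replicate block is given beside it. With the rat row, an alternative chosen after seeing the data, the mean of miR-483-5p was 0.0819 CPM and its share of the miR-483 arms 1.62%. Depth limits miR-335-3p, miR-675-5p and both miR-483-5p rows.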
